A study of Mus musculus with 18 samples.

Results

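Chemokine ligands are small secreted proteins that guide the migration of leukocytes and other cells along concentration gradients. Their genes were taken as every gene symbol of the *Ccl*, *Cxcl* or *Cx3cl1* pattern that stood in the count tables of both cell lines, which gave 37 of 24333 symbols. The rule used names only and no measured value. Expression was measured by RNA-seq in 2 lines of mouse mammary tumour cells, 168FARN and 67NR, each with the genotypes WT, *Kmt2c* KO and *Kmt2d* KO, with 3 replicates per group and 18 libraries in all. *Kmt2c* and *Kmt2d* encode histone H3K4 methyltransferases. The KO cells were sorted pools, made with CRISPR/Cas9 and sgRNAs against exon 1 of the targeted gene, and a pool may hold cells with different edits. The paper sequenced the targeted regions and found all reads mutant only in the 168FARN *Kmt2d* KO pool. The share of mutant reads was lowest in the 67NR *Kmt2c* KO pool, so part of the reads there was unedited. WT 168FARN cells are labelled both as sgControl and as WT, and WT 67NR cells are labelled as WT alone. All cells were grown in culture in the same medium, so no host cells were present. The paper describes biological replicates of a cell line as collections 1 passage apart. Nothing in the sources used here says that the replicates came from separate pools. The p-values then measure the spread between such collections, and genotype and pool cannot be told apart.

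Chemokines are grouped by the receptor that reads them. CXCL1, CXCL2, CXCL3 and CXCL5 bind CXCR2 and attract neutrophils. CCL2 and CCL7 bind CCR2 and attract monocytes, CCL5 and CCL9 bind receptors such as CCR1, and CXCL9, CXCL10 and CXCL11 bind CXCR3 on T cells and natural killer cells. CXCL12 binds CXCR4 and ACKR3 and is made by many stromal cells, CCL20 binds CCR6, CCL25 binds CCR9, and CXCL16 and CX3CL1 are made as membrane-bound proteins that can be shed. Many inflammatory chemokine genes are transcribed through NF-kB, whose binding sites lie close to their start sites, and *Cxcl10* responds to interferons as well.

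The following sequences are shown because the genes of *Cxcl1*, *Cxcl2* and *Cxcl3* are neighbours on chromosome 5 with the same 11-letter element upstream, and because *Ccl20* carries a related element but changed in the opposite direction to *Cxcl1* in 67NR cells. Each is the 250 bases before the RefSeq start site, 5′ to 3′ on the strand of the gene, in build GRCm38.p6. Capitals mark matches to GGGANNNNCC, a short form of the NF-kB site, on either strand, and matches on opposite strands may overlap.

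Cxcl1 (chr5:90890995-90891244, plus strand): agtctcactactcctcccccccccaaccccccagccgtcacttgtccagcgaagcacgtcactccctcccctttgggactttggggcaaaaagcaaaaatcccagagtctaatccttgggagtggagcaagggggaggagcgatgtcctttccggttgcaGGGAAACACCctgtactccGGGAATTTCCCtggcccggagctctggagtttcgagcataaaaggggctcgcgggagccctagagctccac
Cxcl2 (chr5:90903649-90903898, plus strand): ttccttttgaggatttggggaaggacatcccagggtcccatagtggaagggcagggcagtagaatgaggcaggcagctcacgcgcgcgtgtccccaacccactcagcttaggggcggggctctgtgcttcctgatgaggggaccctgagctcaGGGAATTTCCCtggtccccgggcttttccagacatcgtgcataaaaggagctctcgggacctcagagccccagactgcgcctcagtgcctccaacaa
Cxcl3 (chr5:90785851-90786100, plus strand): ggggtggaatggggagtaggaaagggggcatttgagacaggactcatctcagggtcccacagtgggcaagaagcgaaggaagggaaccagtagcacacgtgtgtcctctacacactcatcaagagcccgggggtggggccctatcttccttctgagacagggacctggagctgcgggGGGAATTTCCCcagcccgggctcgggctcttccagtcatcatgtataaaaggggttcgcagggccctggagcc
Ccl20 (chr1:83116516-83116765, plus strand): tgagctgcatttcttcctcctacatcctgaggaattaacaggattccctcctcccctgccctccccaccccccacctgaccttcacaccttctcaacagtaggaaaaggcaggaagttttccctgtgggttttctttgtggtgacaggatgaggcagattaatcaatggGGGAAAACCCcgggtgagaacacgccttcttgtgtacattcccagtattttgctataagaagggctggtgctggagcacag

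The letters GGGAATTTCCC hold a match on each strand and stood at -71 to -61 from the start site of *Cxcl1*, -97 to -87 from that of *Cxcl2* and -73 to -63 from that of *Cxcl3*. *Cxcl1* had a further match at -90 to -81, and the match of *Ccl20* lay at -81 to -72. Promoter sequences were at hand for 25 of the 37 genes. Of all 32851 promoter windows of the same length, 17.6% held a match. The window of *Cxcl10* held 3 matches, and those of *Cxcl12*, *Cx3cl1*, *Ccl9* and *Ccl25* held none. Matches also stood in windows of *Ccl1*, *Ccl19*, *Ccl22*, *Ccl27a*, *Ccl27b*, *Cxcl9* and *Cxcl13*, genes with few or no reads in these libraries. *Ccl2*, *Ccl5*, *Ccl7*, *Cxcl5* and *Cxcl16* had no window in the table. A match describes the sequence and does not show that a factor binds there. None of the 4 windows printed held TGACTCA, the AP-1 site, which stood in 4.46% of windows on either strand, or GAAANNGAAA, an interferon-response motif, which stood in 2.98%, and that of *Cxcl10* held 1 of each.

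In all, 14 of the 37 genes were expressed, taken as a mean of at least 1 CPM (read counts scaled by library size, with TMM factors over all 18 libraries) in at least 1 of the 6 groups. In 168FARN, 9 genes of WT, 9 of *Kmt2c* KO and 10 of *Kmt2d* KO cells reached this level, where 45.4%, 45.5% and 45.3% of all symbols did. In 67NR, 12, 14 and 13 did, against 47.4%, 47.7% and 48.1% of all symbols. The other 23 genes fell into those with a few reads and those with none. The 13 with reads but under 1 CPM in every group were *Cxcl9*, *Cxcl11*, *Cxcl13*, *Cxcl15*, *Cxcl17*, *Ccl3*, *Ccl4*, *Ccl6*, *Ccl8*, *Ccl11*, *Ccl17*, *Ccl22* and *Ccl27a*, and among them *Ccl17* was the only one with reads in all 18 libraries. The highest group means among these were 0.695 CPM for *Ccl17* and 0.688 CPM for *Cxcl11*. No read was counted in any library for 10 genes, namely *Ccl1*, *Ccl12*, *Ccl19*, *Ccl21a*, *Ccl21b*, *Ccl21c*, *Ccl24*, *Ccl26*, *Ccl27b* and *Cxcl14*. A count of 0 allows a level of up to 0.0277 to 0.0457 CPM in a group, from 3 counts over the 3 libraries of a group in 168FARN and 6 in 67NR, so these genes were not detectable at this depth, and such limits cover counting error only. The *Ccl21* genes and the *Ccl27* genes are near-identical copies, and their reads may not be assigned to 1 gene.

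Library totals were 14359760 to 43427382 counts in 168FARN and 40951775 to 79251530 in 67NR. Of the values from 1 to 10, 37.4% to 46.5% were even in 168FARN and 93.9% to 96.7% in 67NR, where counts thus came mostly in steps of 2. The tables of the lines may therefore have been counted differently, which was not tested, and line and table cannot be told apart in any comparison of 67NR with 168FARN. The mRNA of the targeted gene was not called lower in any KO group. *Kmt2c* had 45.5 to 116.9 CPM in WT and 48.0 to 98.5 CPM in *Kmt2c* KO libraries of 168FARN, and 55.7 to 64.7 and 82.9 to 92.2 CPM in those of 67NR, where it was called higher (0.63 on the log2 scale, edgeR adjusted p = 0.0067). That call was lost without WT replicate 3 or *Kmt2c* KO replicate 2 (0.58 in both). *Kmt2d* had 106.3 to 165.1 CPM in WT and 138.5 to 299.5 CPM in *Kmt2d* KO libraries of 168FARN, called higher with the replicate block only (0.66, edgeR adjusted p = 0.0062), and 84.7 to 113.8 and 90.9 to 141.3 CPM in those of 67NR. Counts over a whole gene do not show an edit in exon 1, so they do not check the genotype labels. Replicate 3 stood apart in every group. The median chi-square per gene between replicates 1 and 2 was 6.43 to 9.45 times that of counting alone in 168FARN and 14.3 to 23.8 times in 67NR, and with replicate 3 it was 92.7 to 186.5 and 68.4 to 244.6 times. Same-numbered libraries of different genotypes deviated together, so a fit with the replicate number as a block, and a fit of replicates 1 and 2 alone, are given beside ligands whose call they change. Adjusted p-values are Benjamini-Hochberg values over all genes tested from edgeR's quasi-likelihood test, and calls need an adjusted p below 0.1 together with a log2 fold change beyond 0.6 in size.

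*Cxcl1* and *Cxcl5* had the highest mean CPM of the ligands in WT cells of both lines and in both KO groups of 67NR. In 168FARN *Kmt2c* KO cells, *Cxcl12* (56.9 CPM) and *Cx3cl1* (51.8 CPM) had higher means than *Cxcl5* (44.4 CPM) and *Cxcl1* (42.6 CPM), and in *Kmt2d* KO cells both stood above *Cxcl1*, with overlapping libraries in each case. The summed level of all 37 genes was 233.6 ± 78.6 CPM (SD, n = 3) in WT 168FARN and 1446.1 ± 484.8 CPM in WT 67NR. It was 237.7 ± 14.4 and 220.8 ± 69.4 CPM in *Kmt2c* KO and *Kmt2d* KO cells of 168FARN, and 5537.6 ± 707.3 and 5355.8 ± 481.8 CPM in those of 67NR. The 6 KO libraries of 67NR lay above its 3 WT libraries, and the 9 libraries of 168FARN overlapped between genotypes. *Cxcl1* and *Cxcl5* together made up 46.2% to 61.8% of that sum in WT 168FARN, 32.6% to 45.6% in its KO cells, 72.6% to 88.2% in WT 67NR and 90.3% to 95.1% in 67NR KO cells.

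**Figure D1:**
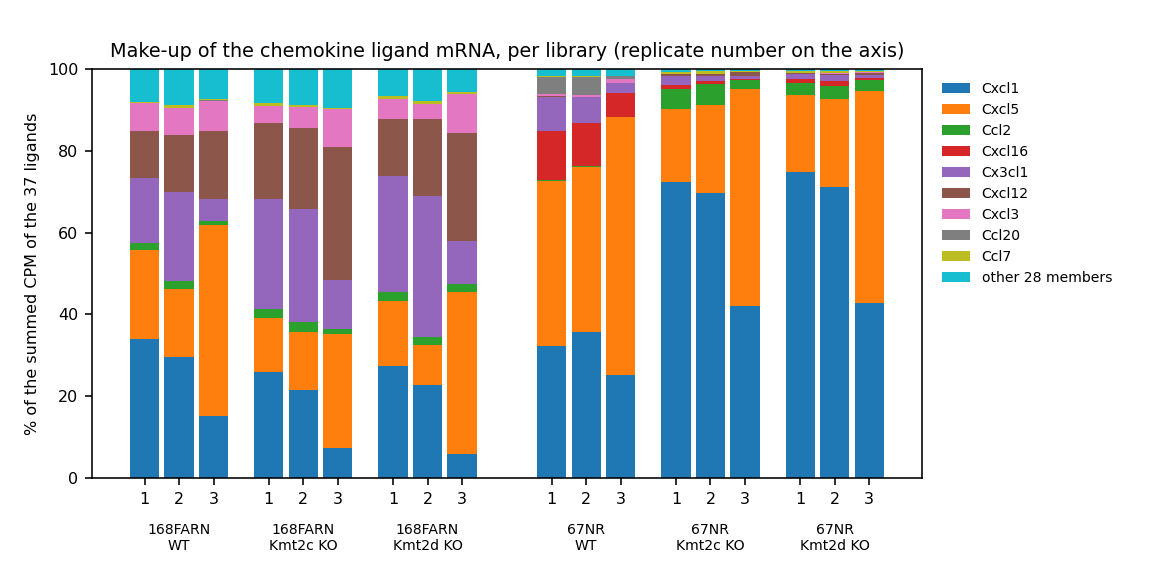
Share of single ligand genes, in percent, in the summed CPM of all 37 ligands, stacked for each of the 18 libraries, with the smaller ones pooled. *Cxcl1* and *Cxcl5* fill most of each 67NR bar. The sums themselves are not drawn. In 67NR they were 1112.8 to 2002.3 CPM in the 3 WT libraries and 4724.4 to 6009.8 CPM in the 6 KO libraries.

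Levels per kilobase of exon allow genes to be set against each other. In WT 67NR, *Cxcl1* stood at 455.7 CPM per kb, rank 86 of 20673 genes with a length, and *Cxcl5* at 443.3 CPM per kb, rank 92. In *Kmt2c* KO and *Kmt2d* KO cells of 67NR, *Cxcl1* stood at 3509.2 and 3518.8 CPM per kb and ranked 2 in both. *Cxcl5* then ranked 33 and 38, *Ccl2* 232 and 367, and *Ccl7* 1843 and 1921. In WT 168FARN the order was *Cxcl1* at 59.3, *Cxcl5* at 45.1 and *Cxcl3* at 16.5 CPM per kb, and the ranges of *Cxcl1* and *Cxcl5* over the 3 libraries overlapped, as they did in WT 67NR.

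Loss of *Kmt2c* or *Kmt2d* was compared with WT within each line. In 67NR *Kmt2c* KO cells, 6 ligand genes rose (*Cxcl1*, *Ccl2*, *Ccl7*, *Cxcl12*, *Ccl9* and *Cxcl13*) and 2 fell (*Ccl20* and *Cxcl16*), of 17 that passed the filter on low counts and of 37 in all. In 67NR *Kmt2d* KO cells, the same 6 rose and *Ccl20* and *Cxcl2* fell. *Cxcl13* had no reads in WT 67NR and passed the filter through the KO libraries alone, so a call against WT could only be higher. Across all 13665 genes tested in that line, loss of *Kmt2c* gave 17.9% called higher and 17.4% called lower, and loss of *Kmt2d* gave 13.9% and 11.6%. Both KO groups were compared with the same 3 WT libraries. The median log2 fold change of the 17 ligands was 0.42 with *Kmt2c* KO and 0.30 with *Kmt2d* KO, against -0.02 over all genes tested in each. With the replicate block, 8 rose and 2 fell in *Kmt2c* KO cells, and 7 rose and 3 fell in *Kmt2d* KO cells, where 21.3% and 19.9%, and 17.4% and 15.4%, of all genes did.

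In 168FARN no ligand gene was called in either KO, of 11 tested. Of 12253 genes, edgeR called 0.196% higher and 0.163% lower with *Kmt2c* KO, and 0.147% and 0.139% with *Kmt2d* KO. At an unadjusted p under 0.05, 0 ligands passed with *Kmt2c* KO and 1 with *Kmt2d* KO, against 5.92% and 5.28% of all genes. DESeq2 called none with *Kmt2c* KO, where it called 1.24% of all genes higher and 1.11% lower. With *Kmt2d* KO it called 1 lower, where it called 1.06% of all genes lower. With the replicate block, *Kmt2c* KO cells had 3 ligands higher and none lower, and *Kmt2d* KO cells 2 higher and 2 lower, where 3.66% and 3.57%, and 2.73% and 3.17%, of all genes were called.

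**Figure D2:**
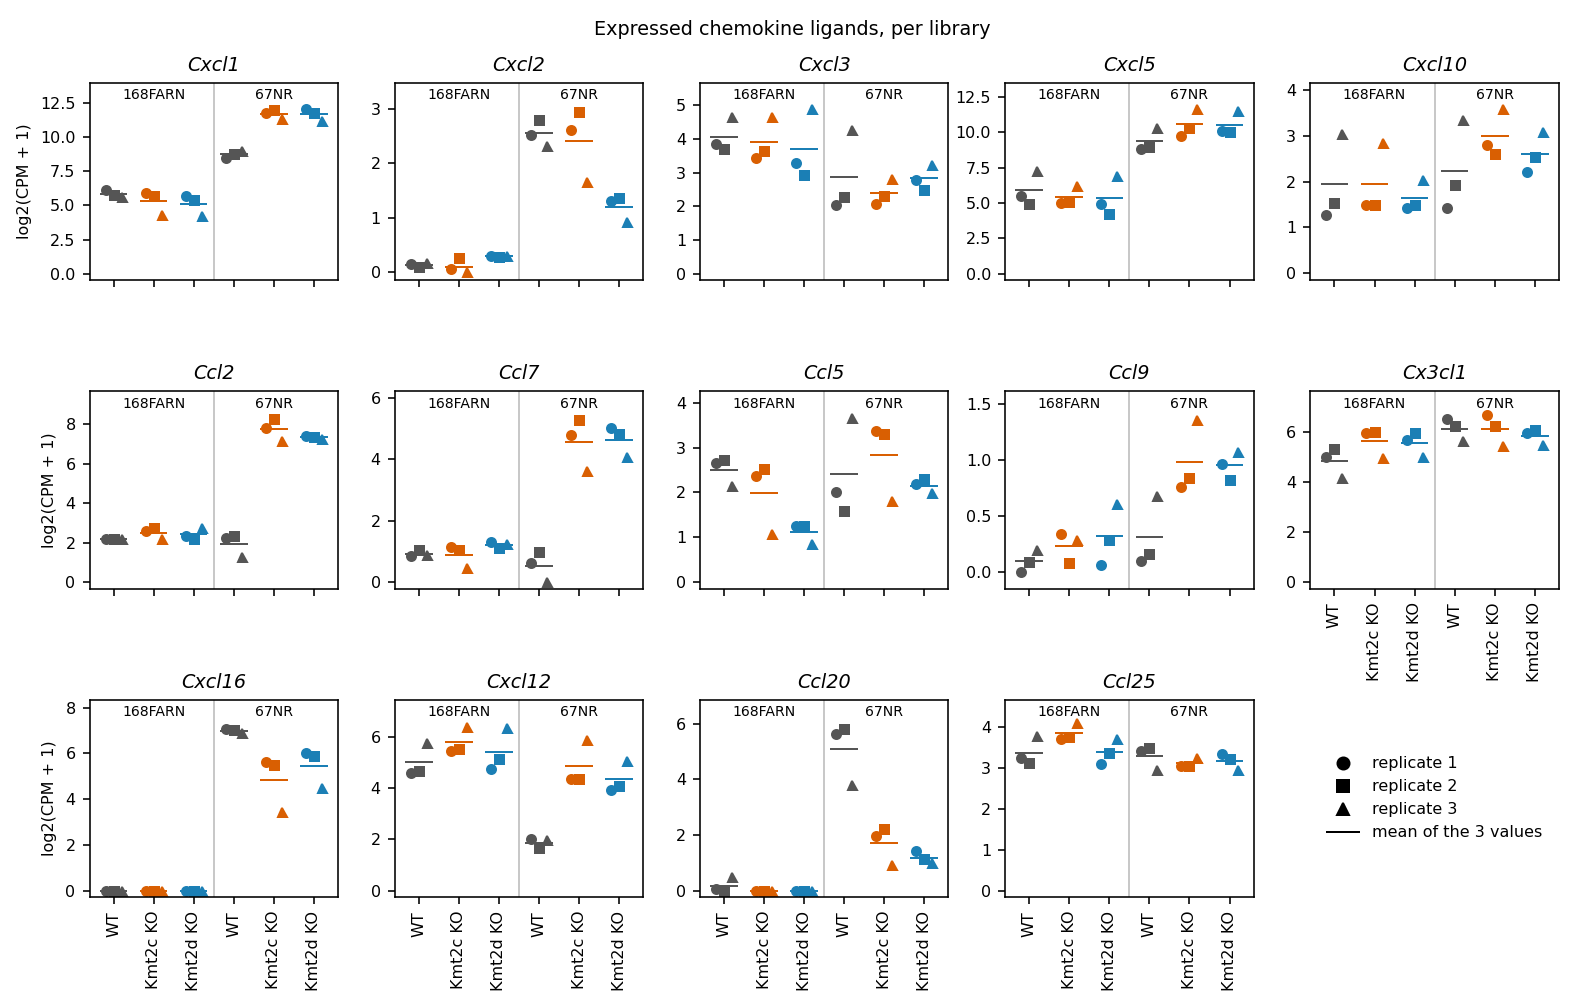
log2(CPM + 1) of the 14 expressed ligand genes, 1 panel each with its own vertical axis, for the 3 genotypes of 168FARN (left) and 67NR (right), with a symbol for each replicate and a bar at the mean of 3. *Cxcl1*, *Ccl2*, *Ccl7* and *Cxcl12* stand higher in both KO groups of 67NR than in its WT cells without overlap, and *Ccl20* and *Cxcl16* stand lower.

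Among the CXCR2 ligands, *Cxcl1* rose in both KO groups of 67NR. *Cxcl1* lies on chromosome 5 of mm9 (chr5:91320267-91322141, plus strand). In 67NR its level in replicates 1, 2 and 3 was 360.2, 437.9 and 504.7 CPM for WT, 3414.7, 4093.9 and 2524.1 CPM for *Kmt2c* KO and 4273.6, 3416.7 and 2369.9 CPM for *Kmt2d* KO cells. All 6 KO libraries lay above all 3 WT libraries. With *Kmt2c* KO it was higher by 3.03 ± 0.29 on the log2 scale (SE, edgeR adjusted p = 6.6e-05) and with *Kmt2d* KO by 3.03 ± 0.29 (edgeR adjusted p = 0.00012). In 168FARN the levels were 67.8, 52.7 and 49.2 CPM for WT, 59.7, 49.5 and 18.6 CPM for *Kmt2c* KO and 49.5, 41.1 and 17.6 CPM for *Kmt2d* KO cells. There the KO groups reached into the WT range, and the log2 fold change in *Kmt2d* KO cells was -0.63, which was called with the replicate block only (-0.78, edgeR adjusted p = 0.096) and not in replicates 1 and 2 alone (-0.37).

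*Cxcl2* lies next to *Cxcl1* (chr5:91332897-91334935) and fell in *Kmt2d* KO but not in *Kmt2c* KO cells of 67NR. Its levels in 67NR were 4.74, 5.96 and 4.0 CPM for WT, 5.11, 6.71 and 2.16 CPM for *Kmt2c* KO and 1.46, 1.55 and 0.879 CPM for *Kmt2d* KO cells. The 3 *Kmt2d* KO libraries were below all others, and *Kmt2c* KO and WT overlapped. The log2 fold change against WT was -1.84 ± 0.43 in *Kmt2d* KO cells (edgeR adjusted p = 0.015). The difference between the KO groups itself, *Kmt2c* KO minus *Kmt2d* KO, was 1.85 ± 0.43 and was not called (edgeR adjusted p = 0.12), but it was with the replicate block (1.78, adjusted p = 0.0031), with DESeq2 (adjusted p = 0.0015) and without *Kmt2c* KO replicate 3 (2.19, edgeR adjusted p = 0.053). Over all alternatives its adjusted p ran from 1.7e-07 to 0.41. In 168FARN no library exceeded 0.226 CPM of *Cxcl2*, from 0 to 7 counts.

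*Cxcl5* (chr5:91188325-91190651) was called or not depending on how replicate 3 was treated. The 67NR levels were 447.4, 491.8 and 1261.8 CPM for WT, 853.1, 1265.7 and 3191.4 CPM for *Kmt2c* KO and 1073.0, 1037.1 and 2880.6 CPM for *Kmt2d* KO cells. Replicate 3 was the highest in each genotype, and within each replicate number both KO libraries were above the WT library, by 0.93 to 1.36 on the log2 scale in replicates 1 and 2. Without the block, the log2 fold change was 1.35 ± 0.62 in *Kmt2c* KO (edgeR adjusted p = 0.13) and 1.25 ± 0.62 in *Kmt2d* KO cells (edgeR adjusted p = 0.19). With the block it was 1.30 ± 0.15 (edgeR adjusted p = 2.3e-05) and 1.26 ± 0.15 (edgeR adjusted p = 5.4e-05), and both comparisons were called. DESeq2 without the block called the first (adjusted p = 0.056). Over all alternatives the adjusted p ran from 7.9e-18 to 0.46 and from 4.9e-16 to 0.49. Leaving out WT replicate 3 gave 1.99 (edgeR adjusted p = 0.039) and 1.90 (edgeR adjusted p = 0.061), and leaving out *Kmt2c* KO replicate 1 gave 1.68 (edgeR adjusted p = 0.089). In 168FARN the levels were 43.6, 29.3 and 150.8 CPM for WT, 30.4, 32.1 and 70.8 CPM for *Kmt2c* KO and 28.8, 17.8 and 119.6 CPM for *Kmt2d* KO cells, again highest in replicate 3.

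*Cxcl3* (chr5:91215129-91217112), a further CXCR2 ligand of this cluster, was not called in any comparison of a KO with WT over all replicates. Its 67NR levels were 3.13, 3.89 and 18.4 CPM for WT, 3.18, 3.99 and 6.08 CPM for *Kmt2c* KO and 5.85, 4.60 and 8.36 CPM for *Kmt2d* KO cells. WT replicate 3 was above all other libraries of the line. The log2 fold change in *Kmt2d* KO cells was -0.36 over all replicates and 0.65 in replicates 1 and 2 alone (edgeR adjusted p = 0.02), where it was called. In 168FARN it stood at 13.5, 12 and 24.3 CPM for WT, 9.93, 11.5 and 24 CPM for *Kmt2c* KO and 8.72, 6.65 and 29.0 CPM for *Kmt2d* KO cells. Replicate 3 was the highest of each genotype there, and in *Kmt2d* KO cells replicates 1 and 2 alone gave -0.68 (edgeR adjusted p = 0.016).

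The CCR2 ligands *Ccl2* (chr11:81849073-81850955) and *Ccl7* (chr11:81859214-81861027), neighbours on chromosome 11, showed the largest fold changes of the expressed ligands in 67NR. *Ccl2* stood at 3.69, 4.0 and 1.40 CPM for WT, 225.7, 304.4 and 140.1 CPM for *Kmt2c* KO and 169.4, 159.8 and 150.7 CPM for *Kmt2d* KO cells of 67NR. The lowest KO library was above the highest WT library in both comparisons. *Kmt2c* KO cells had a log2 fold change of 6.28 ± 0.47, or 77.7-fold (edgeR adjusted p = 1.6e-05), and *Kmt2d* KO cells one of 5.79 ± 0.46, or 55.3-fold (edgeR adjusted p = 4e-05). In 168FARN it stood at 3.56, 3.48 and 3.60 CPM for WT, 5.03, 5.66 and 3.55 CPM for *Kmt2c* KO and 4.12, 3.51 and 5.69 CPM for *Kmt2d* KO cells, with means of 3.55 ± 0.0575, 4.75 ± 1.08 and 4.44 ± 1.13 CPM (SD, n = 3) in the order WT, *Kmt2c* KO, *Kmt2d* KO. The *Kmt2c* KO difference there, 0.42 ± 0.28, was called only in replicates 1 and 2 alone (0.62, edgeR adjusted p = 0.038). *Ccl2* overlaps the gene *Gm17268* on the opposite strand, and whether reads were counted by strand is not given in the sources used here.

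*Ccl7* stood at 0.544, 0.984 and 0 CPM for WT, 26.8, 37.7 and 11.2 CPM for *Kmt2c* KO and 31.5, 27.3 and 15.7 CPM for *Kmt2d* KO cells of 67NR. It went from under 1 CPM in each WT library to over 10 CPM in each KO library. Against WT, the log2 fold changes were 5.65 ± 0.92 with *Kmt2c* KO (edgeR adjusted p = 0.0015) and 5.62 ± 0.92 with *Kmt2d* KO (edgeR adjusted p = 0.0025). Without WT replicate 2 they were 6.41 and 6.40. In 168FARN it stood at 0.821, 1.07 and 0.828 CPM for WT, 1.22, 1.07 and 0.383 CPM for *Kmt2c* KO and 1.45, 1.14 and 1.39 CPM for *Kmt2d* KO cells. *Ccl8* and *Ccl11*, which lie in the same cluster, were at or under 0.153 CPM in every library, and *Ccl12* had no reads.

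**Figure D3:**
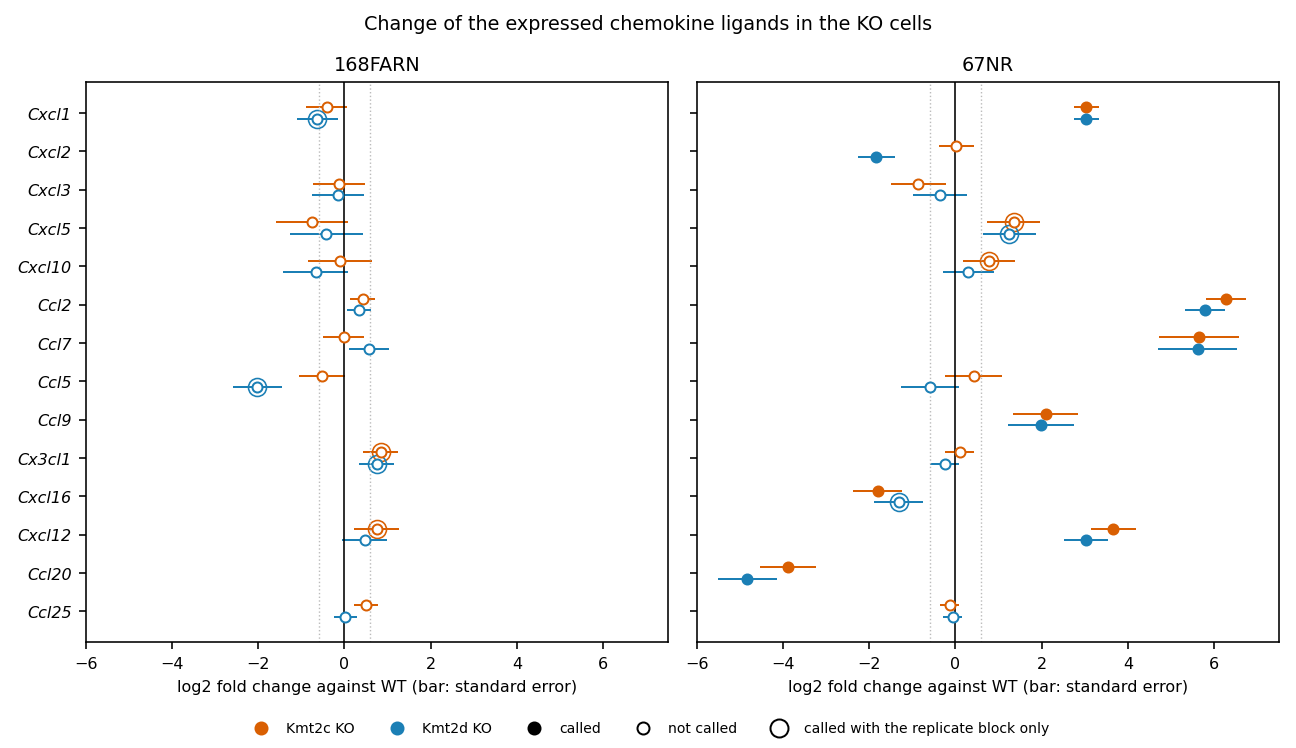
Log2 fold change of *Kmt2c* KO and *Kmt2d* KO against WT for the expressed ligands tested, in 168FARN (left) and 67NR (right), with bars of 1 SE. Filled points were called by edgeR without the block and rings mark those called with the replicate block only. The 67NR points reach from -4.83 (*Ccl20*, *Kmt2d* KO) to 6.28 (*Ccl2*, *Kmt2c* KO), and no point of 168FARN is filled.

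Among the ligands of CCR1, *Ccl5* (chr11:83339280-83344020), which attracts T cells and monocytes, was lowest in *Kmt2d* KO cells in 168FARN. It stood at 5.30, 5.59 and 3.43 CPM for WT, 4.14, 4.75 and 1.09 CPM for *Kmt2c* KO and 1.36, 1.36 and 0.791 CPM for *Kmt2d* KO cells. The *Kmt2d* KO libraries did not overlap WT. The log2 fold change against WT was -2.02 ± 0.56 and was not called (edgeR adjusted p = 0.42, unadjusted p = 0.0066), while the replicate block (-2.03 ± 0.31, edgeR adjusted p = 0.0021), DESeq2 (adjusted p = 0.025) and replicates 1 and 2 alone (-1.96, edgeR adjusted p = 0.00015) called it, with adjusted p from 2.2e-07 to 1.0 over all alternatives. The difference between the KO groups in 168FARN was 1.5 (edgeR adjusted p = 0.79) and was called with the block (1.36, edgeR adjusted p = 0.025). In 67NR, *Ccl5* stood at 3.03, 2.0 and 11.6 CPM for WT, 9.38, 8.91 and 2.49 CPM for *Kmt2c* KO and 3.54, 3.92 and 2.94 CPM for *Kmt2d* KO cells. Replicates 1 and 2 of *Kmt2c* KO were above those of WT and replicate 3 was below it. The log2 fold change in *Kmt2c* KO cells was 0.42 ± 0.67 over all replicates (edgeR adjusted p = 0.68) and 1.94 in replicates 1 and 2 alone (edgeR adjusted p = 3.3e-07), and in *Kmt2d* KO cells it was -0.59 and 0.64 (edgeR adjusted p = 0.60 and 0.021).

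*Ccl9* (chr11:83386421-83392138), a CCR1 ligand, rose in 67NR at a low level. It stood at 0.0709, 0.118 and 0.597 CPM for WT, 0.691, 0.795 and 1.57 CPM for *Kmt2c* KO and 0.959, 0.773 and 1.10 CPM for *Kmt2d* KO cells. The groups did not overlap. Fold changes on the log2 scale were 2.09 ± 0.76 with *Kmt2c* KO (edgeR adjusted p = 0.062) and 1.98 ± 0.76 with *Kmt2d* KO (edgeR adjusted p = 0.096), and with the block 2.33 (edgeR adjusted p = 0.0053) and 2.36 (edgeR adjusted p = 0.0075). Without WT replicate 3, the WT library with the highest level of *Ccl9*, they were 3.49 and 3.39, and in replicates 1 and 2 alone 3.06 and 3.28 (edgeR adjusted p = 0.00019 and 0.00014). The first call was lost without WT replicate 1 (1.61), WT replicate 2 (1.73), *Kmt2c* KO replicate 2 (2.24) or *Kmt2c* KO replicate 3 (1.65), with edgeR adjusted p from 0.10 to 0.18. The second was lost without WT replicate 1 or 2, or any 1 of the *Kmt2d* KO replicates, with log2 fold changes from 1.52 to 2.12 and edgeR adjusted p from 0.15 to 0.24.

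The CXCR3 ligands were low in both lines. *Cxcl10* (chr5:92775664-92777915, minus strand) stood at 1.68, 2.79 and 9.14 CPM for WT, 5.94, 5.09 and 11 CPM for *Kmt2c* KO and 3.60, 4.80 and 7.43 CPM for *Kmt2d* KO cells of 67NR. Replicate 3 was again the highest of each genotype. *Cxcl10* was not called in *Kmt2c* KO cells without the block (0.78 ± 0.60, edgeR adjusted p = 0.36), and it was with the block (1.02, edgeR adjusted p = 0.013), in replicates 1 and 2 alone (1.39, edgeR adjusted p = 0.0001) and without WT replicate 3 (1.79, edgeR adjusted p = 0.015), with adjusted p from 0.0001 to 0.71 over all alternatives. In *Kmt2d* KO cells it was called in replicates 1 and 2 alone (1.00, edgeR adjusted p = 0.0032, against 0.30 over all replicates). In 168FARN it stood at 1.40, 1.89 and 7.19 CPM for WT, 1.79, 1.82 and 6.18 CPM for *Kmt2c* KO and 1.67, 1.79 and 3.09 CPM for *Kmt2d* KO cells. *Cxcl9* did not exceed 0.153 CPM and *Cxcl11* exceeded 1 CPM only in WT 67NR replicate 3, at 1.52 CPM. *Cxcl10* and *Cxcl11* overlap *Art3* on the opposite strand.

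*Cxcl12* (chr6:117118553-117131385), the ligand of CXCR4 and ACKR3, rose in both KO groups of 67NR. Its levels were 3.0, 2.14 and 2.89 CPM for WT, 19.3, 19.3 and 57.4 CPM for *Kmt2c* KO and 14.1, 15.7 and 32.6 CPM for *Kmt2d* KO cells. All KO libraries were above WT, with replicate 3 the highest in each KO. It rose by 3.66 ± 0.52 on the log2 scale, or 12.6-fold, with *Kmt2c* KO (edgeR adjusted p = 0.00069) and by 3.03 ± 0.51, or 8.16-fold, with *Kmt2d* KO (edgeR adjusted p = 0.0028). In replicates 1 and 2 alone it was 2.98 and 2.60, and both were called, and without *Kmt2c* KO replicate 3 the first was 2.94. In 168FARN the levels were 23.0, 24.5 and 53.7 CPM for WT, 42.4, 45.5 and 82.9 CPM for *Kmt2c* KO and 25.6, 33.8 and 79.5 CPM for *Kmt2d* KO cells. The *Kmt2c* KO library was above the WT library of the same number in 3 of 3 pairs, and the log2 fold change of 0.75 was not called without the block (edgeR adjusted p = 1.0), and it was with it (0.81, edgeR adjusted p = 0.0021) and in replicates 1 and 2 alone (0.90, edgeR adjusted p = 0.00027). Over all alternatives the adjusted p ran from 1.6e-06 to 1.0.

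The membrane-bound chemokines differed between the lines. *Cxcl16* (chr11:70267485-70273486, minus strand) had no reads in any 168FARN library and fell in 67NR KO cells. It stood at 134.4, 129.4 and 116.4 CPM for WT, 48.2, 44.8 and 9.79 CPM for *Kmt2c* KO and 63.3, 58.7 and 21.6 CPM for *Kmt2d* KO cells of 67NR. Both KO groups were below WT in every library, with replicate 3 the lowest. The log2 fold change was -1.80 ± 0.57 with *Kmt2c* KO (edgeR adjusted p = 0.037) and -1.32 ± 0.56 with *Kmt2d* KO (edgeR adjusted p = 0.13). With the block, *Kmt2d* KO was called too (-1.55, edgeR adjusted p = 0.0093), as it was by DESeq2 (adjusted p = 0.052) and in replicates 1 and 2 alone (-1.04, edgeR adjusted p = 5.1e-07), with adjusted p up to 0.25 over all alternatives. *Cxcl16* overlaps *Zmynd15* on the opposite strand.

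*Cx3cl1* (chr8:97295909-97306323), which binds CX3CR1, stood at 31.6, 38.7 and 16.8 CPM for WT, 61.7, 63.5 and 30.1 CPM for *Kmt2c* KO and 51.2, 62.2 and 31.3 CPM for *Kmt2d* KO cells of 168FARN. Each KO library was above the WT library of its number, and replicate 3 was the lowest of each genotype. Without the block the log2 fold change was 0.84 ± 0.41 and 0.75 ± 0.41 (edgeR adjusted p = 0.94 and 1.0). With the block both were called, at 0.84 ± 0.11 in *Kmt2c* KO (edgeR adjusted p = 0.00049) and 0.77 ± 0.11 in *Kmt2d* KO cells (edgeR adjusted p = 0.0011), and so they were in replicates 1 and 2 alone (0.85 and 0.72, edgeR adjusted p = 0.00033 and 0.0017). Over all alternatives the adjusted p reached 1.0 in both. In 67NR its levels were 91.9, 76.0 and 48.9 CPM for WT, 101.3, 74.6 and 42.5 CPM for *Kmt2c* KO and 61.8, 66.8 and 44.3 CPM for *Kmt2d* KO cells, and the genotypes overlapped.

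*Ccl20* (chr1:83113341-83115742), which attracts CCR6-positive dendritic cells and lymphocytes, fell in 67NR KO cells. It stood at 48.5, 55.4 and 12.8 CPM for WT, 2.86, 3.68 and 0.892 CPM for *Kmt2c* KO and 1.70, 1.18 and 1.00 CPM for *Kmt2d* KO cells. The lowest WT library, replicate 3, was above all KO libraries. Against WT its log2 fold change was -3.88 ± 0.65 with *Kmt2c* KO (edgeR adjusted p = 0.0017) and -4.83 ± 0.68, a 28.4-fold lower level, with *Kmt2d* KO (edgeR adjusted p = 0.0011). In 168FARN the gene had 18 counts over the WT libraries, with none in WT replicate 2, and no reads in the 6 KO libraries.

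A few of the low genes and *Ccl25* complete the account. *Cxcl13*, which attracts B cells, had no reads in WT 67NR, 30 counts over the *Kmt2c* KO and 33 over the *Kmt2d* KO libraries, so it was at least 5.31-fold and at least 7.27-fold higher, against the limit of 6 counts over the WT group (edgeR adjusted p = 0.016 and 0.017). It stayed at or under 0.402 CPM in every library. As it passed the filter on low counts through the KO libraries alone, it could not have been called lower. *Ccl17*, a CCR4 ligand, was called higher in both KO groups of 168FARN with the block (1.40 and 1.56, edgeR adjusted p = 0.098 and 0.099), with means of 0.232, 0.585 and 0.695 CPM, and in replicates 1 and 2 alone (1.26 and 1.57, edgeR adjusted p = 0.096 and 0.067). *Ccl22*, which also binds CCR4, had no reads in WT 67NR, and 26 and 10 counts over the libraries of *Kmt2c* KO and *Kmt2d* KO cells. *Ccl25* stood at 8.52, 7.70 and 12.7 CPM for WT, 12.2, 12.5 and 16.2 CPM for *Kmt2c* KO and 7.58, 9.30 and 12.1 CPM for *Kmt2d* KO cells of 168FARN. In 67NR it had 9.62, 10.3 and 6.80 CPM for WT, 7.24, 7.33 and 8.45 CPM for *Kmt2c* KO and 9.21, 8.30 and 6.70 CPM for *Kmt2d* KO cells, and the genotypes overlapped. It was called in a KO against WT only in replicates 1 and 2 of 168FARN *Kmt2c* KO cells (0.62, edgeR adjusted p = 0.01).

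The KO groups were also compared with each other. Of the ligands, 0 were called between *Kmt2c* KO and *Kmt2d* KO cells in 168FARN or 67NR by edgeR without the block. In each line 1 had an unadjusted p under 0.05, where 5.03% of all genes did in 168FARN and 10.9% in 67NR. Of all genes, 0.131% were called higher and 0.122% lower in *Kmt2c* KO cells in 168FARN, and 0.132% higher and 1.28% lower in 67NR. With the block, 1 ligand was called in each line, *Ccl5* in 168FARN and *Cxcl2* in 67NR, both higher in *Kmt2c* KO cells, where 2.89% and 1.59% of all genes were higher and 2.44% and 5.7% lower. DESeq2 called 0 ligands in 168FARN, where 1.09% of all genes were higher and 0.832% lower. It called 1 in 67NR, where 0.937% were higher and 3.43% lower. In replicates 1 and 2 alone, *Ccl2* (0.69), *Ccl5* (1.30) and *Ccl20* (1.19) of 67NR were called as well, with edgeR adjusted p of 0.001, 0.00029 and 0.00043.

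**Figure D4:**
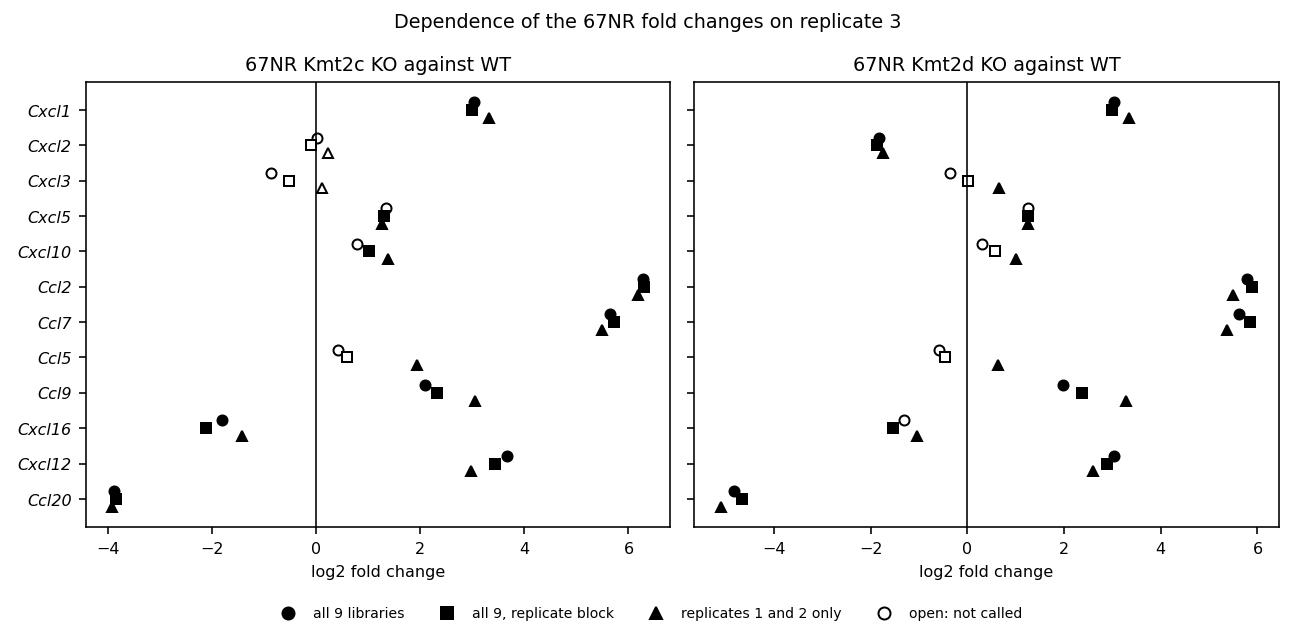
Log2 fold change against WT in 67NR for most of the ligands tested, from edgeR without the block, with the replicate block and from replicates 1 and 2 alone, for *Kmt2c* KO (left) and *Kmt2d* KO (right), with filled points for those called. *Cxcl11*, *Cxcl13*, *Cx3cl1*, *Ccl17* and *Ccl25* were tested but are not drawn. *Cxcl5* stays near the same value in the 3 fits (1.35, 1.30 and 1.26 in *Kmt2c* KO) while its call changes, and *Ccl5* moves from 0.42 to 1.94.

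The lines differed before any KO. Between WT 67NR and WT 168FARN, 7 ligands were called higher in 67NR and 1 lower, of 16 tested, where 22.3% of 13882 genes were higher and 16.9% lower. Of the 7, *Cxcl2*, *Cxcl11*, *Cxcl16* and *Ccl20* had few or no reads in WT 168FARN. They passed the filter on low counts through the 67NR libraries alone, so a call could only be higher in 67NR. *Cxcl1* was higher by 2.94 ± 0.44 on the log2 scale (edgeR adjusted p = 6.6e-05), *Cxcl2* by 5.65 ± 0.73 (edgeR adjusted p = 1.5e-05), *Cxcl5* by 3.30 ± 0.84 (edgeR adjusted p = 0.006), *Cx3cl1* by 1.32 ± 0.40 (edgeR adjusted p = 0.017) and *Ccl20* by 7.91 ± 1.08 (edgeR adjusted p = 0.00012). Of the 18 counts of *Ccl20* in WT 168FARN, 17 lay in replicate 3, and its value was 10.94 without that library, 9.41 with the block and 11.41 in replicates 1 and 2 alone. *Cxcl5* had 4.27 without 168FARN WT replicate 3 and 2.66 without 67NR WT replicate 3. *Cxcl16*, with 25246 counts against 0, was at least 4469.9-fold higher. *Cxcl11* was called higher too (3.65 ± 1.16, edgeR adjusted p = 0.025), with 5.33 without 168FARN WT replicate 1 and 2.95 without 168FARN WT replicate 3, but not without 67NR WT replicate 3 (2.34, edgeR adjusted p = 0.12) or in replicates 1 and 2 alone (1.67, edgeR adjusted p = 0.16). *Cxcl12* was lower in WT 67NR, by a log2 fold change of -3.65 ± 0.58 (edgeR adjusted p = 0.00013). With the block, *Cxcl3* (-1.28, edgeR adjusted p = 0.0029) and *Ccl7* (-1.02, edgeR adjusted p = 0.078) were lower as well, where 27.0% of all genes were higher and 21.5% lower. Without 67NR WT replicate 3, *Cxcl3* was also called (-2.24, edgeR adjusted p = 0.011).

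The KO effect was then tested for a difference between the lines. The *Kmt2c* KO effect was higher in 67NR than in 168FARN for 4 ligands and lower for none, of 16 tested, where 8.49% and 7.55% of all genes were. These were *Ccl2* (a difference of 5.78 ± 0.51 on the log2 scale, edgeR adjusted p = 1.8e-06), *Ccl7* (5.61 ± 1.09, edgeR adjusted p = 0.0026), *Cxcl1* (3.35 ± 0.59, edgeR adjusted p = 0.0012) and *Cxcl12* (2.82 ± 0.76, edgeR adjusted p = 0.023). The *Kmt2d* KO effect was higher in 67NR for the same 4 genes, at 5.38 ± 0.51, 5.00 ± 1.08, 3.60 ± 0.59 and 2.5 ± 0.75 (edgeR adjusted p = 5e-06, 0.0086, 0.0011 and 0.058), and lower for *Cxcl2* (-3.11 ± 0.96, edgeR adjusted p = 0.064), where 6.68% and 3.92% of all genes were. The *Cxcl2* call was lost in 9 of the 12 fits that leave out 1 library (-2.81 to -3.15), those without 168FARN WT replicate 1 or 2, 168FARN *Kmt2d* KO replicate 1, 2 or 3, 67NR WT replicate 1 or 2, or 67NR *Kmt2d* KO replicate 1 or 3. The *Cxcl12* call for *Kmt2d* KO was lost in 6 (2.06 to 2.58), those without 168FARN WT replicate 3, 168FARN *Kmt2d* KO replicate 1 or 2, 67NR WT replicate 1 or 2, or 67NR *Kmt2d* KO replicate 3. *Ccl7* had 6.41 and 5.79 without 67NR WT replicate 2, and *Cxcl12* 2.20 for *Kmt2c* KO without 67NR *Kmt2c* KO replicate 3 and 3.21 for *Kmt2d* KO without 168FARN *Kmt2d* KO replicate 3. With the block, *Cxcl5* was also called in both (1.68 and 1.70, edgeR adjusted p = 0.0003 and 0.00041), and *Cx3cl1* was called lower in 67NR in both (-0.86 and -1.05, edgeR adjusted p = 0.0014 and 0.00041). For *Kmt2c* KO, *Cxcl10* (0.97, edgeR adjusted p = 0.088) and *Ccl25* (-0.71, edgeR adjusted p = 0.029) were added. Of all genes, 17.4% were then higher in 67NR and 17.2% lower for *Kmt2c* KO, and 15.4% and 13.0% for *Kmt2d* KO.

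Replicates 1 and 2 alone gave more calls in all, for the ligands and for all genes, where each group had 2 libraries. In 168FARN, *Kmt2c* KO had 5 ligands higher and 0 lower, with 7.98% and 6.51% of all genes, and *Kmt2d* KO had 2 and 2, with 5.34% and 5.62%. Between the KO groups of 168FARN, 1 was higher with *Kmt2c* KO and 0 lower, with 5.15% and 4.14% of all genes. That ligand was *Ccl5* (1.69, edgeR adjusted p = 0.0007). In 67NR, *Kmt2c* KO had 9 higher and 2 lower, with 23.0% and 21.2% of all genes, and *Kmt2d* KO had 10 and 3, with 19.0% and 16.8%. Between the KO groups of 67NR, 4 were higher with *Kmt2c* KO and 0 lower, with 5.0% and 7.59% of all genes. Between the WT lines, 6 were higher in 67NR and 3 lower, with 28.6% and 25.6% of all genes. *Cxcl16* and *Ccl20*, with few or no reads in 168FARN, could again not be called lower in 67NR. The lower ones were *Cxcl12*, *Cxcl3* (-1.89, edgeR adjusted p = 6e-08) and *Ccl5* (-1.14, edgeR adjusted p = 0.00011). The KO effects differed between lines for 7 ligands upwards and 2 downwards with either KO, with 19.2% and 18.7% of all genes for *Kmt2c* KO, and 18% and 14.5% for *Kmt2d* KO. Among them, *Ccl5* was called for both KO effects (2.15 and 2.58, edgeR adjusted p = 8.7e-06 and 7.9e-06) and *Cxcl3* for *Kmt2d* KO (1.31, edgeR adjusted p = 0.0013).

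Few receptor genes were expressed in these cells. Of 23 chemokine receptor genes, 1 in WT and 2 in each KO of 168FARN, and 5 in WT and 3 in each KO of 67NR, reached 1 CPM. In 67NR, 4 of the 7 receptors tested fell and none rose in *Kmt2c* KO cells, where 17.4% of all genes were lower. In *Kmt2d* KO cells 3 fell and none rose, where 11.6% of all genes were lower. With the block 6 fell in *Kmt2d* KO cells, where 15.4% of all genes were lower. *Ccr7* was among the 4 of *Kmt2c* KO cells (-2.74, edgeR adjusted p = 0.032), a call lost without WT replicate 2 or *Kmt2c* KO replicate 1 or 2 (-2.08 to -2.55). *Cxcr4*, the signalling receptor for CXCL12, went from 3.85 ± 1.28 CPM (SD, n = 3) in WT 67NR to 0.465 ± 0.230 CPM in *Kmt2c* KO cells (log2 fold change -2.95, edgeR adjusted p = 0.0042) and to 0 counts in *Kmt2d* KO cells, at least 101.6-fold lower against 806 counts (edgeR adjusted p = 0.00027). It had no reads in 168FARN. *Ccrl2*, an atypical receptor, fell from 6.73 ± 0.525 CPM to 0.317 and 0.319 CPM (log2 fold changes of -4.33 and -4.35, edgeR adjusted p = 0.00013 and 0.00023). *Cxcr3* fell in *Kmt2c* KO cells (-1.28, edgeR adjusted p = 0.028), which was no longer called without *Kmt2c* KO replicate 2 (-1.14), and in *Kmt2d* KO cells with the block only (-1.02, edgeR adjusted p = 0.016) or without *Kmt2d* KO replicate 3 (-1.28). *Ackr3* stood at 27.4 ± 0.127, 17.8 ± 4.29 and 15.4 ± 4.34 CPM in the 3 genotypes of 67NR, in the order WT, *Kmt2c* KO, *Kmt2d* KO. It fell in *Kmt2d* KO cells (-0.76, edgeR adjusted p = 0.047), a call lost without WT replicate 1 or 2 or *Kmt2d* KO replicate 1 or 2 (-0.58 to -0.76), and was called in *Kmt2c* KO cells without *Kmt2c* KO replicate 3 only, among fits that leave out 1 library (-0.73). *Cxcr2*, the receptor of CXCL1 and CXCL5, had group means of 0.0199 to 0.215 CPM. In 168FARN, 0 of the 3 receptors tested were called without the block and 2 were higher in each KO with it, *Ackr3* among them (1.32 and 0.90, edgeR adjusted p = 0.00028 and 0.0061). Of all genes there, 0.196% and 0.147% were higher in *Kmt2c* KO and *Kmt2d* KO cells without the block, and 3.66% and 2.73% with it.

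Genes of the NF-kB pathway were called in both directions in 67NR, as were genes in general, so this alone does not set the pathway apart. Of 24 listed and tested, 9 rose and 4 fell in *Kmt2c* KO cells, and 3 rose and 4 fell in *Kmt2d* KO cells, where 17.9% of all genes were higher and 17.4% lower, and 13.9% and 11.6%. The median log2 fold change was 0.20 and 0.16 against -0.02 for all genes. Leaving out 1 library ended the calls of *Rel*, *Traf1* and *Irak1*, all higher in *Kmt2c* KO cells, and of *Myd88* and *Bcl3*, lower in *Kmt2d* KO cells. *Il1rap*, a subunit of the interleukin-1 receptor, rose by 1.47 and 1.28 on the log2 scale (edgeR adjusted p = 0.00019 and 0.00073), and *Relb*, an NF-kB subunit, by 1.18 and 0.84 (edgeR adjusted p = 0.0032 and 0.024). *Nfkbia*, which encodes an inhibitor of NF-kB that is itself induced by it, rose by 1.88 and 1.41 (edgeR adjusted p = 0.0054 and 0.028). *Tnfaip3*, an inhibitor of the pathway, fell in both KO groups (-1.57 and -0.77, edgeR adjusted p = 0.00055 and 0.028), as did *Bcl3* (-2.11 and -0.81, edgeR adjusted p = 0.00046 and 0.06). The second *Bcl3* call was lost without WT replicate 1 or 3 or *Kmt2d* KO replicate 1 or 2 (-0.54 to -0.84). With the block, 5 rose and 5 fell in *Kmt2d* KO cells of 67NR, where 17.4% of all genes were higher and 15.4% lower. In 168FARN, of 23 tested, none was called in *Kmt2c* KO cells, and *Il1r1* rose in *Kmt2d* KO cells (1.34, edgeR adjusted p = 0.06), a call lost without any 1 of the WT replicates or *Kmt2d* KO replicate 1 or 2 (1.20 to 1.38). Of all genes, 0.196% were higher and 0.163% lower with *Kmt2c* KO, and 0.147% and 0.139% with *Kmt2d* KO. With the block, 3 rose and 1 fell in 168FARN *Kmt2c* KO cells, where 3.66% of all genes were higher and 3.57% lower.

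Of 20 listed genes of interferon signalling, all tested, 2 rose and 8 fell in *Kmt2c* KO and 2 rose and 6 fell in *Kmt2d* KO cells of 67NR, with a median of -0.48 and -0.38. Against these counts, 17.9% of all genes were higher and 17.4% lower with *Kmt2c* KO, and 13.9% and 11.6% with *Kmt2d* KO. With the block, 3 rose and 8 fell in *Kmt2d* KO cells, where 17.4% of all genes were higher and 15.4% lower. *Irf7*, a transcription factor induced by interferon, fell by 2.78 and 2.27 on the log2 scale (edgeR adjusted p = 0.00016 and 0.00083). *Ifnar2*, a subunit of the type I interferon receptor, fell by 1.48 and 1.17 (edgeR adjusted p = 0.0003 and 0.0018). *Cxcl10*, described above, was not called lower in either. In 168FARN none was called without the block, and with it 6 fell in *Kmt2d* KO cells and none in *Kmt2c* KO cells. With the block, 3.17% and 3.57% of all genes were lower in these 2 comparisons, and without it 0.139% and 0.163%.

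Markers of cell type also moved in 67NR. Epithelial markers, 7 genes in all, summed to 2098.4 to 3424.8 CPM for WT, 432.7 to 760.4 CPM for *Kmt2c* KO and 732.8 to 1529.5 CPM for *Kmt2d* KO cells of 67NR. Without the block, 6 of 6 tested fell with *Kmt2c* KO and 4 of 6 with *Kmt2d* KO, against 17.4% and 11.6% of all genes lower. With the block, 6 of 6 fell with either KO, against 19.9% and 15.4% of all genes. The *Kmt2c* KO calls of *Krt8* and *Krt14* were lost without WT replicate 3 or *Kmt2c* KO replicate 1 or 2, with log2 fold changes of -0.98 and -1.51 without WT replicate 3. The *Kmt2d* KO call of *Krt18* (-1.32) was lost without any 1 of the WT replicates or *Kmt2d* KO replicate 1 or 2 (-0.91 to -1.51). Of these markers, *Epcam* had means of 587.8, 150.0 and 216.7 CPM, in the order WT, *Kmt2c* KO, *Kmt2d* KO. In 168FARN the sum was 98.9 to 397.2 CPM, *Epcam* had no reads and *Krt8* alone reached 1 CPM. Of 12 leukocyte markers, *Ptprc*, the pan-leukocyte marker, had group means of at most 0.0502 CPM, and only *Cd68* and, in WT 67NR, *Csf1r* reached 1 CPM. The leukocyte sum was 2.95 to 93.6 CPM over all libraries and its groups overlapped in each line. Of 5 endothelial markers, only *Cdh5* reached 1 CPM, in *Kmt2c* KO cells of 168FARN (4.77 CPM) and 67NR (1.51 CPM), and the summed ranges were 0.459 to 0.735, 1.48 to 2.20 and 0.867 to 1.51 CPM in the 67NR genotypes in the same order. In 67NR, *Csf1r* was called lower in *Kmt2d* KO cells (-4.51, edgeR adjusted p = 0.052), but not without WT replicate 3 (-2.09), which alone held 3.67 CPM, or *Kmt2d* KO replicate 1 (-4.76) or 2 (-3.88). *Cdh5* was called higher in both KO groups (2.60 and 1.75, edgeR adjusted p = 0.0048 and 0.04), the second not without WT replicate 2 (1.60). The part of these marker changes in the changes of the ligands was not tested. In bulk libraries, fewer cells that express a gene and less RNA per cell cannot be told apart.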

How the data were processed

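RNA-seq data of 18 libraries were analysed, 3 for each of 3 genotypes in 2 lines. mRNA libraries were made from 100 ng of RNA, and their reads were mapped to mm9 by the authors, with STAR as part of VIPER. The authors deposited raw counts per gene symbol in 1 table per line, with 24360 symbols in each. Tool versions and the strand setting of the counting are not given in the sources used here. The 67NR table held 27 symbols turned into dates. These were left out of the CPM and of comparisons between lines, and stayed in the tests within 67NR where they passed the filter. All told, 0 value columns could not be matched to a sample. Library totals were 14359760 to 43427382 counts in 168FARN and 40951775 to 79251530 in 67NR, and *Rn45s* took 0.46% to 4.96% and 0.49% to 28.74% of them.

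The software was R 4.3.3, edgeR 4.0.16, DESeq2 1.42.0 and Python 3.11.15. For the main test, a quasi-likelihood model (edgeR, robust) was fitted after TMM scaling and edgeR's filter on low counts, to the 9 libraries of a line with genotype as the only factor, or to all 18 libraries for comparisons between lines. All tests were two-sided and adjusted by Benjamini-Hochberg over all genes tested. Standard errors were taken from the fold change and its F statistic. The fits were tested on simulated data with 200 genes changed. Same-numbered libraries of different genotypes correlated in their deviations from the group means with r of 0.75 to 0.93 for 168FARN and 0.49 to 0.83 for 67NR, over 9 pairs each, and were taken as paired. Pairs with different numbers had r of -0.90 to 0.82 and -0.78 to 0.73, and some replicates 1 and 2 correlated more with the other number than with their own, and collection times were handled as batches in the heatmaps of the authors. The pairing comes from replicate numbers in the labels. The replicate block, DESeq2, other filters and scalings, each library left out and, chosen after seeing the data, replicates 1 and 2 alone, fits without *Rn45s*, 67NR counts divided by 2 and fits without robust estimates were alternatives.

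The ligands and the lists of receptors, NF-kB, interferon and marker genes were chosen with earlier results of these data known. Every ligand was accounted for, with values per library in each line where it had at least 1 CPM in any group. Of the other lists, up to 4 genes with the smallest p per comparison, and *Cxcr2*, *Cxcr3*, *Cxcr4* and *Ackr3*, were named, and the marker genes and genes with lost calls named were chosen after their values were seen. *Kmt2c* and *Kmt2d* were added as the targeted genes. The values of 1 listed receptor are not reported here. Gene positions and exon lengths are from GENCODE vM1 (mm9), 1-based. Promoters are from RefSeq, build GRCm38.p6, and matched 25 of the 37 ligands by symbol.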

Additional observations from a re-analysis of the deposited data

Results flagged for a closer look

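These results are given because the effect of a KO differed between 67NR and 168FARN by the interaction test of edgeR on all 18 libraries. For *Kmt2c* KO, the effect in 67NR minus that in 168FARN was 3.35 on the log2 scale for *Cxcl1*, 5.78 for *Ccl2*, 5.61 for *Ccl7* and 2.82 for *Cxcl12*. For *Kmt2d* KO, it was 3.60 for *Cxcl1*, 5.38 for *Ccl2*, 5.00 for *Ccl7*, 2.5 for *Cxcl12* and -3.11 for *Cxcl2*. The 168FARN libraries held 0 to 7 counts of *Cxcl2*, which passed the filter on low counts through the 67NR libraries alone. For *Kmt2d* KO, the calls of *Cxcl2* and *Cxcl12* were lost in several of the fits that leave out 1 library, as given above. The count tables of the lines may have been made differently, and line and table cannot be told apart.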

How the results depend on the processing

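Counting error and the spread of 3 replicates limit all genes under 1 CPM. Of 68 fold changes of single ligands, 33 of them called by edgeR without the block, 1228 alternative values were computed, of which 1091 kept direction and call, 33 lost the call, 84 gained it and 20 turned direction. The cause of the changes was not tested.

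With the replicate block, 3 ligands were called higher in 168FARN *Kmt2c* KO, 2 higher and 2 lower in 168FARN *Kmt2d* KO, 1 higher in *Kmt2c* KO than *Kmt2d* KO cells of 168FARN and 1 in 67NR, 3 lower in WT 67NR than in WT 168FARN, and 2 lower in 67NR for each of the KO effects compared between lines. The block changed no call of a ligand other than those named in the report. With the block in DESeq2 these were 2, 1 and 2, 1 and 2, 3, and 2, and 4 were lower in 67NR *Kmt2d* KO. DESeq2 without the block called 1 lower in 168FARN *Kmt2d* KO and 1 higher in *Kmt2c* KO than *Kmt2d* KO cells of 67NR. At an adjusted p under 0.05 and any fold change, 0 were lower for the *Kmt2d* KO effect between lines. At 5 CPM, 6 ligands were expressed in 168FARN *Kmt2d* KO. In replicates 1 and 2 alone, 5 were higher in 168FARN *Kmt2c* KO, 2 higher and 2 lower in 168FARN *Kmt2d* KO, 1 and 4 higher in *Kmt2c* KO than *Kmt2d* KO cells of 168FARN and 67NR, 10 higher in 67NR *Kmt2d* KO, 3 lower in WT 67NR, and 7 higher and 2 lower for each KO effect between lines.

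Leaving out 1 library gave 0 to 0 calls in 168FARN, 5 to 9 higher and 2 to 2 lower in each KO of 67NR, 0 to 1 higher between the KO groups of 67NR, 6 to 7 higher and 1 to 2 lower between WT lines, 4 to 4 higher for the *Kmt2c* KO effect, and 3 to 5 higher and 0 to 1 lower for the *Kmt2d* KO effect. Expressed ligands were 9 to 9, 9 to 10 and 10 to 10 in 168FARN and 12 to 12, 13 to 14 and 13 to 14 in 67NR.

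*Cxcl3* in 67NR *Kmt2d* KO turned from -0.36 to 0.02 with the block, 0.01 with it in DESeq2 and 0.65 in replicates 1 and 2 alone, and ran from -0.74 to 0.91 with 1 library left out. Its difference between lines turned from -0.27 to 0.29, 0.34 and 1.31, and ran from -0.69 to 1.00. *Cxcl3* in 168FARN *Kmt2d* KO (-0.15) ran from -1.09 to 0.24, and *Cxcl10* in 67NR *Kmt2d* KO (0.30) from -0.09 to 1.31. *Ccl5* in 67NR *Kmt2d* KO turned from -0.59 to 0.64 in replicates 1 and 2 alone and ran from -0.98 to 0.54, and between WT lines from 0.21 to -1.14, running from -0.92 to 0.62. The *Cxcl10* difference between lines for *Kmt2c* KO (0.80) ran from -0.16 to 1.82.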
